A study of Homo sapiens with 24 samples.

Results

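MB468res-R8 cells between 0.5 and 2 h after the switch from medium with methionine (Met+) to medium in which Met was replaced by its precursor homocysteine (Met-Hcy+) are described here, from 6 of the 24 RNA-sequencing libraries of the series: 3 libraries at 0.5 h and 3 at 2 h. They were chosen by their labels alone, and no measured value entered the choice. MB468 is short for MDA-MB-468, an established triple-negative breast cancer cell line that needs Met to proliferate, and MB468res-R8 is a derivative of it that proliferates in Met-Hcy+ medium and stands for resistance as 1 derived line. Both groups of MB468res-R8 libraries came from cells in medium without Met and with 370 µM DL-homocysteine, and they differ in the time since the switch. The other MB468res-R8 libraries came from cells in 100 µM Met (0 h) and at 12 h in Met-Hcy+ medium, and MB468 was sampled at the same 4 times, with 3 libraries in each of the 8 groups, all in DMEM with dialyzed serum. The sources used here do not say whether the 3 libraries of a group came from separate cultures, so p-values measure the spread between these libraries, which may be technical. No library of cells whose Met+ medium was renewed at 0 h is analysed here, so the loss of Met, the supply of Hcy, and the change of medium cannot be told apart.

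Of 26645 gene entries, 14739 passed the filter on low counts and entered edgeR's quasi-likelihood test. The 6 libraries held between 16605920 and 36401605 gene counts, and spike-in RNAs took 0.260% of all counts on average at 0.5 h and 0.266% at 2 h (exact two-sided permutation p = 0.8, smallest possible 0.1). The epithelial label was borne out by its markers: EPCAM lay between 327 and 355 CPM (counts scaled to a common library total) and KRT8 between 1952 and 2394, whereas PTPRC of leukocytes, COL3A1 of fibroblasts, and CLDN5 of endothelium did not exceed 0.192 CPM. The summed level of 6 endothelial markers was 19.6 to 29.4 CPM at 0.5 h and 58.9 to 62.8 CPM at 2 h, most of it from KDR, and 3 of the 5 tested were higher at 2 h (KDR, VWF, and CDH5). For fibroblast markers the sums were 40.6 to 45.1 and 58.8 to 65.9 CPM (nearly all COL1A1), and for leukocyte markers 52.4 to 55.5 and 57.4 to 67.8 CPM (mostly CD14). All 6 libraries came from 1 cultured cell line, and each sum was mostly 1 gene, so the sums do not measure a share of other cell types. Whether other cells were present was not tested. In bulk RNA, a change in every cell of the line and a change in some of its cells cannot be told apart.

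Cells given fresh medium or a growth signal transcribe immediate early genes within minutes. These encode transcription factors of the FOS, JUN, and EGR families, phosphatases that switch off mitogen-activated protein (MAP) kinases, and proteins that bind and destabilize messenger RNAs, and their own transcripts are short-lived, so that they appear and vanish as a pulse. Met feeds the synthesis of S-adenosylmethionine (SAM), the methyl donor of the cell, and scarcity of amino acids is read out through the transcription factor ATF4 and its partner CHOP. Binding sites known for these programs are the CArG box (serum response factor), the cyclic AMP response element or CRE (CREB and ATF factors), the AP-1 site (FOS and JUN dimers), and the ATF4 element.

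Promoters of 4 genes are shown because each holds one of these motifs and its gene was among those with large changes in either direction: the transcription factor EGR1, the MAP kinase phosphatase DUSP1, and the glutathione-degrading enzyme CHAC1, which fell from 0.5 to 2 h, and the membrane-cytoskeleton linker EZR, which rose. Each line gives the 250 bases before the RefSeq start (GRCh38.p14), 5′ to 3′ on the gene's strand, with CArG boxes (EGR1), the CRE (DUSP1), the ATF4 element (CHAC1), and the AP-1 site (EZR) in capitals. The intervals are chr5:138465229-138465478 (plus strand) for EGR1, chr5:172771196-172771445 (minus) for DUSP1, chr15:40953221-40953470 (plus) for CHAC1, and chr6:158818236-158818485 (minus) for EZR, whose interval lies inside the longest annotated extent of the gene.
EGR1: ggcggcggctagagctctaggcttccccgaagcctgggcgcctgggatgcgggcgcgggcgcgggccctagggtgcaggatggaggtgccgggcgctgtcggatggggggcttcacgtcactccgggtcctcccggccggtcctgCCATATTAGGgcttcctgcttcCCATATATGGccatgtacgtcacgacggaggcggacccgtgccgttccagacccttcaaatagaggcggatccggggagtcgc
DUSP1: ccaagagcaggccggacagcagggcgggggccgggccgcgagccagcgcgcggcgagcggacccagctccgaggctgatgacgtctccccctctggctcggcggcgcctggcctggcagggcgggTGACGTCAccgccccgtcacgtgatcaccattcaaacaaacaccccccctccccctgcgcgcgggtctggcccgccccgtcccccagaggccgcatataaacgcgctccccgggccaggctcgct
CHAC1: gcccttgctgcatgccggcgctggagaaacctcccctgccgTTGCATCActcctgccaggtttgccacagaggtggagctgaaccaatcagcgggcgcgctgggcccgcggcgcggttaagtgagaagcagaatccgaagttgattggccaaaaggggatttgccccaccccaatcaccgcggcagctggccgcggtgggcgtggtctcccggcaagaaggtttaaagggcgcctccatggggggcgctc
EZR: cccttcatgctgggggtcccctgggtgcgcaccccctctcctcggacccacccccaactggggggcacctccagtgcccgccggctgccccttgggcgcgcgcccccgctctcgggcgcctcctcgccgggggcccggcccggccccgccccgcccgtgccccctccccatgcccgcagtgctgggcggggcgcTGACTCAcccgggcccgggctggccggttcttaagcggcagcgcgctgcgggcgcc
The 2 CArG boxes of EGR1 began 105 and 83 bases before the start, the CRE of DUSP1 125, the ATF4 element of CHAC1 (on the opposite strand) 209, and the AP-1 site of EZR 56.

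Within 1.5 h of culture the expression of a large share of all genes changed. Between 0.5 and 2 h, 5194 genes were called at an adjusted p under 0.05 (35.2% of those tested), 2503 of them higher at 2 h (17.0%) and 2691 lower (18.3%). A change of at least 2-fold was found for 594 genes (4.03%), 407 higher (2.76%) and 187 lower (1.27%). Most changes were small, with a median absolute log2 fold change of 0.348 among called genes. With spike-in totals in place of gene counts as library sizes, the calls fell to 2379, and 35.5% of them were higher, against 48.2% with the scaling used throughout. Over all tested genes that scaling moved the median from 0.002 to -0.084 (log2).

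Immediate early genes showed the largest falls. FOS, on chromosome 14 (75278828 to 75282230, GRCh38), encodes a subunit of AP-1. It had 9668, 10898, and 10604 normalized counts in the 3 libraries at 0.5 h and 233, 240.1, and 204 at 2 h. EGR1, a zinc finger transcription factor, had 17597, 19078, and 20090 at 0.5 h and 607, 701, and 641 at 2 h. DUSP1, which dephosphorylates MAP kinases, had 27270, 24863, and 24058 and 949.6, 1022, and 965. All libraries at 0.5 h thus lay far above all libraries at 2 h, and the log2 fold changes were -5.50 for FOS (SE 0.09, adjusted p = 1.66e-23), -4.85 for EGR1 (SE 0.11, adjusted p = 7.97e-17), and -4.69 for DUSP1 (SE 0.07, adjusted p = 2.50e-25). EGR2, a relative of EGR1, fell from 847 ± 86.0 to 28.8 ± 2.93 normalized counts (SD, n = 3), a log2 fold change of -4.84. RGL2, a regulator of Ral GTPases, was also among the 10 largest falls (-4.42), but its libraries at 0.5 h ranged from 29.6 to 222 normalized counts, and the adjusted p was 0.0846 without replicate 3 at 0.5 h and 0.0575 without replicate 2 at 2 h. RASD1, a Ras-related GTPase, had 69.7, 49.6, and 52.8 normalized counts at 0.5 h and 3.20, 3.85, and 4.19 at 2 h, and RGS16, which ends G protein signals, changed by -2.77.

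Of 25 tested early transcription factors, 14 were lower at 2 h and 7 higher (all genes 18.3% and 17.0%), with a median log2 fold change of -1.18 beside 0.002 for all tested genes. JUNB, a partner of FOS named here after its values were seen, had a log2 fold change of -2.70, and the Krüppel-like factors KLF10 and KLF6 had -1.80 and -1.50. Not every member went down. The nuclear receptor NR4A3 had 936, 309, and 326 normalized counts at 0.5 h and 3767, 3831, and 3084 at 2 h, a rise of 2.71 (SE 0.36, adjusted p = 1.00e-05). One library at 0.5 h was well above the other 2, yet the groups did not overlap, and when the replicate number was a block the adjusted p was 0.0545. Among the other 6 that rose was FOSL1, a further AP-1 subunit, also named after its values were seen (1.52).

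Genes that restrain signaling and shorten messages were lower at 2 h as well. Of 14 mRNA decay and early response genes, 11 were lower and 2 higher (median -1.02), and of 17 MAP kinase feedback genes, 11 were lower and 2 higher (median -0.34). Of all genes 18.3% were lower and 17.0% higher. ZFP36 (tristetraprolin), which directs mRNAs to decay, had 2719, 2586, and 2933 normalized counts at 0.5 h and 414, 419, and 422 at 2 h. With libraries of each time so close together, its log2 fold change of -2.71 had an adjusted p of 1.50e-29, the second smallest of all genes after TRIB1, a pseudokinase (-2.43, 2.51e-32). ZFP36L1, a relative of ZFP36, had -1.60, the nuclear protein IER2 -2.14, the small GTPase RHOB -1.64, and the phosphatase DUSP5 -1.75. The phosphatases DUSP7 (0.90) and DUSP16 (1.41) were the 2 of this group that rose.

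HES1, a repressor induced by Notch, fell from 5193, 5488, and 5300 to 503, 511, and 474 normalized counts in the respective 3 libraries, without overlap and with a log2 fold change of -3.42 (SE 0.11). In its list of 14 TGF-beta, BMP, and Notch targets, 7 were lower and 3 higher, beside 18.3% and 17.0% of all genes. The receptor inhibitor SMAD7 (-1.84) and the corepressor TGIF1 (-1.11) fell, and PMEPA1, which is induced by TGF-beta, rose (1.72). Among 16 NF-kB genes, 7 rose and 5 fell (all genes 17.0% and 18.3%). The IkappaB genes NFKBIZ (-1.89) and NFKBIA (-1.28) were lower, NFKBIE, named after its values were seen, was not called (-0.19, adjusted p = 0.111), and the subunits RELB (1.68) and NFKB2 (0.68) were higher. The EGFR ligands went both ways, with HBEGF lower (-0.96) and AREG (1.77), EPGN (2.48), and TGFA (0.68) higher, in a list of 11 genes of which 5 rose and 2 fell. The share that fell was near that of all genes (18.3%), and 17.0% of all genes rose.

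The falls brought these genes back toward the level of cells in Met+ medium, in part past it. FOS had 288 ± 16.5 normalized counts at 0 h (SD, n = 3), DUSP1 had 1100 ± 69.9, and HES1 had 653 ± 186. In the test of 2 h against 0 h, which called 4.34% of all genes, none of the 3 was called (log2 fold changes of -0.34, -0.16, and -0.37; adjusted p = 0.142, 0.347, and 0.138), and EGR1 had changed by -0.57 (adjusted p = 0.00611). Of the 14 early transcription factors that fell, 9 were called at 2 h against 0 h, 5 of them still above the 0 h level and 4 below it. At 12 h, FOS, EGR1, and DUSP1 had lower means than at 2 h, 64.3, 221, and 308, whereas HES1 was at 1137.

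**Figure D1:**
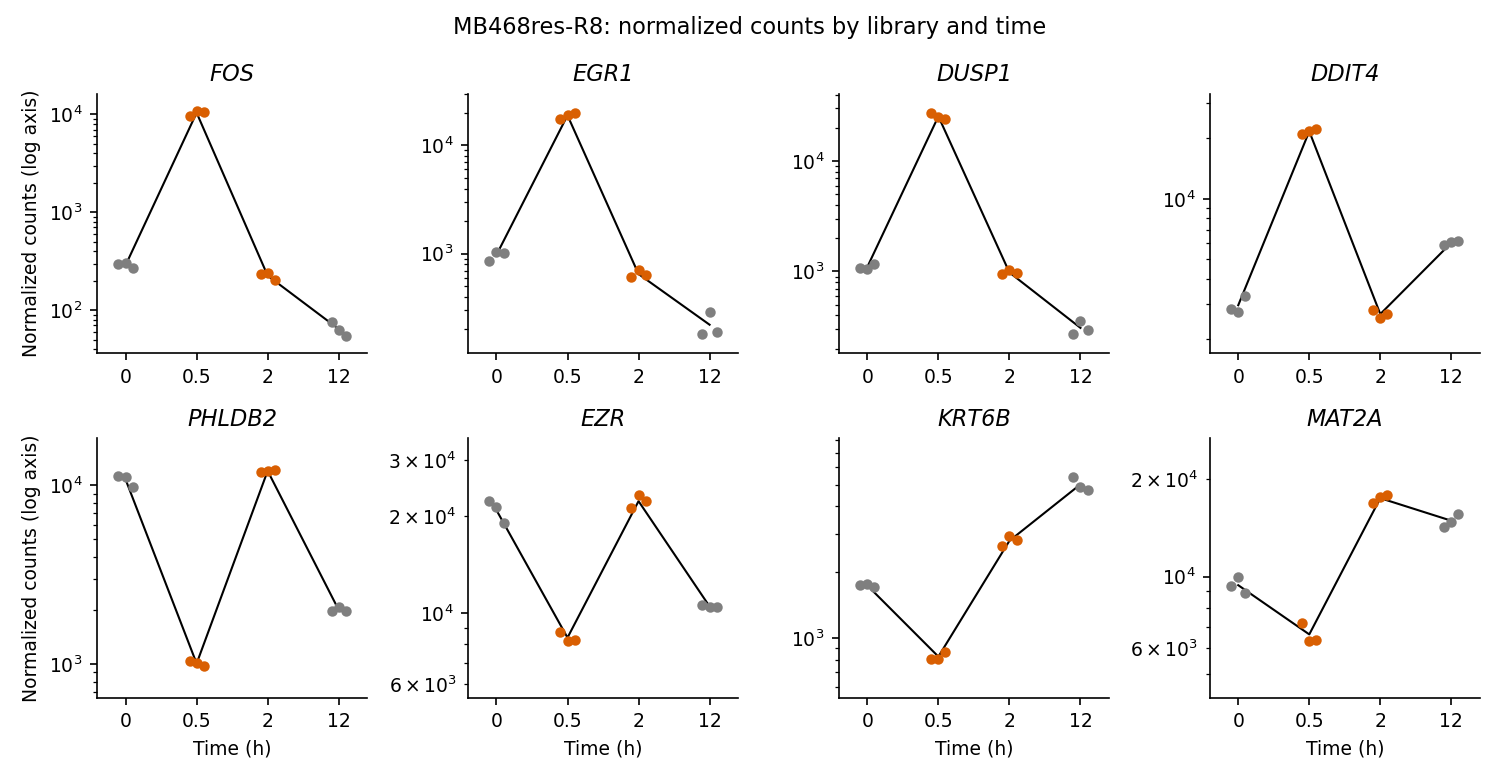
Normalized counts (log axis) of 8 genes in MB468res-R8 by time after the medium switch (h; evenly spaced, not to scale); points are libraries (orange at 0.5 and 2 h, gray at 0 and 12 h), and the line joins the means of 3. FOS, EGR1, DUSP1, and DDIT4 peaked at 0.5 h, PHLDB2 and EZR dipped at 0.5 h, and KRT6B and MAT2A were higher at 2 h than at both 0 and 0.5 h.

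Other genes dipped at 0.5 h and had recovered by 2 h. PHLDB2, which anchors microtubules at the cell cortex, had 1044, 1010, and 973 normalized counts at 0.5 h and 11904, 12019, and 12276 at 2 h, a rise on the log2 scale of 3.58 (SE 0.08, adjusted p = 6.52e-21). Its level had been 10798 ± 811 at 0 h, so that at 0.5 h it was 9.35% of that, a fall that corresponds to 1 halving in every 8.8 min. EZR (ezrin) had 8764, 8174, and 8224 at 0.5 h and 21234, 23376, and 22332 at 2 h, with 20912 ± 1705 at 0 h and 10491 ± 92.3 at 12 h. Thus both genes were low at 0.5 h, were near the 0 h level at 2 h, and were low again at 12 h. ST3GAL1, a sialyltransferase, followed the same course with means of 9290, 2986, 9125, and 2578 at 0, 0.5, 2, and 12 h.

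The largest log2 fold changes upward belonged mostly to genes of low level. MAPK4, an atypical MAP kinase, had 6.10, 8.46, and 7.37 normalized counts at 0.5 h and 125, 176, and 126 at 2 h (4.29, SE 0.29), RAB7B, a small GTPase of endosomes, had 27.0, 25.4, and 33.2 and 328, 301, and 339 (3.50), and PLAT, the tissue plasminogen activator, had 25.3, 24.2, and 28.3 and 355, 457, and 305 (3.86). In each the lowest library at 2 h lay above the highest at 0.5 h, which held for 46.0% of all tested genes between these groups in one direction or the other. With PHLDB2, EVA1C, TNFRSF8, UNC13A, NPTX1, HES2, and NTSR1 complete the 10 largest rises. Of these, TNFRSF8, UNC13A, NPTX1, HES2, and NTSR1 had means of 3.08 to 10.9 normalized counts at 0.5 h, so that their changes rest on few reads.

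For most called genes, the 0 h level lay nearer to 2 h than to 0.5 h. On the log2 scale this held for 2154 of the 2503 genes that rose (86.1%, exact 95% binomial interval 84.6 to 87.4, which counts genes as if they were independent) and for 2360 of the 2691 that fell (87.7%, 86.4 to 88.9). The 0 h libraries are not part of the comparison of 0.5 and 2 h. The root mean square difference in log2 CPM over all tested genes was 0.244 between 0 and 2 h, 0.442 between 0 and 0.5 h, and 0.459 between 0.5 and 2 h. Each of the 3 libraries at 0 h was closer to the 2 h mean (0.315 to 0.378, on log2 of normalized counts plus 1) than to the 0.5 h mean (0.508 to 0.527). The 12 h level lay nearer to 2 h for 47.9% of rising and 39.3% of falling genes. In MB468, the 0 h level was nearer to 2 h for 71.0% of the 2505 genes that rose in that line and 70.0% of the 2310 that fell. Whether the 0 h cultures had received fresh Met+ medium shortly before harvest is not given in the sources used here.

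**Figure D2:**
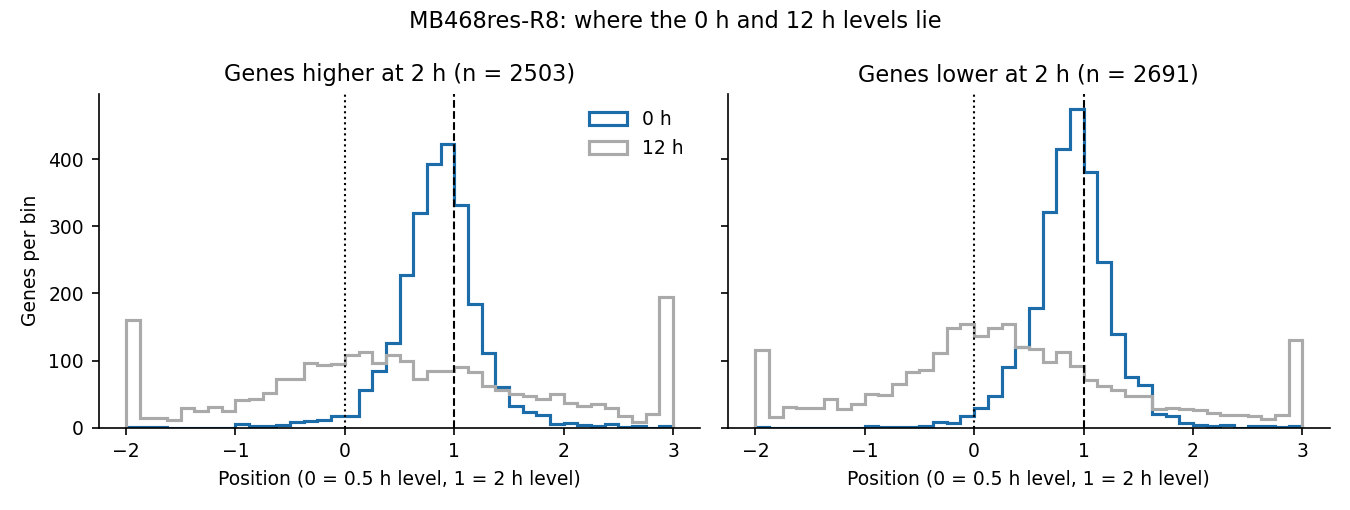
Number of called genes per bin (y axis) against the position of their 0 h (blue) and 12 h (gray) level in MB468res-R8 on the log2 CPM scale, where 0 is the 0.5 h level and 1 the 2 h level; positions past -2 or 3 are drawn in the outermost bins. The 0 h positions pile up near 1 for the 2503 genes that rose and the 2691 that fell, and the 12 h positions are spread out.

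Among the larger changes, 245 of the 407 genes with a 2-fold rise (60.2%) had a 0 h level nearer to 2 h and a 12 h level nearer to 0.5 h, as PHLDB2 did. Of the 187 genes with a 2-fold fall, 106 (56.7%) had both their 0 h and their 12 h levels nearer to 2 h, as FOS did. A minority had a 0 h level nearer to that at 0.5 h, 54 genes with a 2-fold rise (13.3%) and 15 with a 2-fold fall (8.0%). Many of this minority averaged under 1 CPM over the 6 libraries, so that their changes rest on few reads. Examples, named after their values were seen, are CMPK2 (0.205 CPM), which rose, and MIR429 (0.144 CPM), which fell. The rise of TRIM27, also named after its values were seen, rests on 1 library (4.27, 158.6, and 6.98 normalized counts at 2 h).

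MAT2A, on chromosome 2 (85539168 to 85545281), which encodes the catalytic subunit of the enzyme that makes SAM from Met, had the smallest p in this minority. It had 7178, 6328, and 6376 normalized counts at 0.5 h and 16907, 17657, and 17872 at 2 h, and changed by 1.40 (SE 0.05, adjusted p = 4.30e-24). Its libraries at 0 h averaged 9406 ± 534 (SD, n = 3), so that the level dipped before it rose above the start, and at 12 h it was 14884 ± 733. Next by p, and named after their values were seen, were SPPL3, an intramembrane protease (1418, 1395, and 1446 at 0.5 h and 2869, 3253, and 2989 at 2 h), and further down the list IVL, the precursor of the keratinocyte envelope (2.05), and PDK4, an inhibitor of pyruvate dehydrogenase (2.53). CBX2, a Polycomb subunit, went down after 0.5 h and narrowly missed the 2-fold limit. It had 1932, 1929, and 1897 normalized counts at 0.5 h and 956, 895, and 1071 at 2 h (-0.99, adjusted p = 3.38e-18), and a 0 h mean of 1869, from which 0.5 h differed by 0.04 on the log2 scale (adjusted p = 0.623, in a test that called 33.7% of all genes).

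Of 27 tested genes of the methionine cycle, SAM, and polyamines, 10 were higher at 2 h and 1 was lower (median 0.105), beside 17.0% and 18.3% of all genes. Under spike-in scaling 5 were called higher and 1 lower (median 0.016, beside -0.084 for all tested genes). Besides MAT2A, the polyamine genes SAT1 (0.54), AMD1 (0.50), and ODC1 (0.45) rose, encoding the acetyltransferase that clears polyamines, the decarboxylase of SAM, and the decarboxylase of ornithine. At 2 h against 0 h, SAT1 was higher (0.76, adjusted p = 1.85e-09). AMD1 (0.10, adjusted p = 0.178) and ODC1 (-0.09, adjusted p = 0.469) were not called there, after changes of -0.40 and -0.54 by 0.5 h. MTR, the methionine synthase that turns Hcy into Met (named after its values were seen), had a log2 fold change of -0.01 and was not called.

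Targets of ATF4 and CHOP did not move as one: of 36 tested, 12 were lower at 2 h, 6 were higher, and the median was -0.015. Of all genes 18.3% were lower and 17.0% higher, and the share higher in the list was near the latter. DDIT4, an inhibitor of mTORC1 signaling, fell from 20992, 21793, and 22364 to 2772, 2541, and 2660 normalized counts (-3.03, SE 0.07, adjusted p = 8.47e-20). CHAC1 fell from 919.6, 944, and 1039 to 333, 356, and 313 (-1.52, SE 0.09). DDIT3, which encodes CHOP, had -1.49, the stress protein SESN2 -1.44, and PPP1R15A (GADD34), which restores translation by dephosphorylating eIF2 alpha, -0.92. The amino acid transporter SLC38A2 (-1.01) and PSPH of serine synthesis (-0.27), named after their values were seen, fell as well. Other genes of the list for the synthesis of amino acids were not called. ASNS, the asparagine synthetase, had 4583, 4675, and 4972 normalized counts at 0.5 h and 5113, 5193, and 4937 at 2 h (0.10, adjusted p = 0.302), although it was called when only the 6 libraries were fitted (adjusted p = 0.0298). PSAT1 and PHGDH, also of serine synthesis, had log2 fold changes of -0.03 and 0.04, and MTHFD2 of mitochondrial folate metabolism had -0.10, all 3 named after their values were seen. Rises were found for SLC7A5, a transporter of large neutral amino acids (1.17, named after its values were seen), and for the death receptor TNFRSF10B (1.16). CHAC1 was still above its 0 h level of 231 ± 9.54 at 2 h (0.54 against 0 h, adjusted p = 5.40e-04). In that comparison 3 genes of the list were higher and 1 was lower (SLC38A2, -0.24). DDIT4 (-0.15), DDIT3 (0.04), SESN2 (0.07), PPP1R15A (-0.11), SLC7A5 (0.02), and TNFRSF10B (-0.03) were not called. Of 23 ATF6 and XBP1 targets, the other arms of the unfolded protein response, 5 rose and 3 fell, near the shares of all genes (17.0% and 18.3%), with the chaperone DNAJB9 (-0.65) and HERPUD1 of protein degradation at the ER (-0.41) the furthest down.

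Genes of lipid metabolism changed little between 0.5 and 2 h. Of 25 FA synthesis genes 4 were higher and 2 lower, of 28 beta-oxidation genes 3 and 3, of 21 phospholipid synthesis genes 3 and 3, and of 27 sterol genes 7 and 4, and the 4 medians lay between -0.052 and -0.001. Apart from the sterol genes that rose, each of these shares was below that of all genes (17.0% higher, 18.3% lower). FASN, the FA synthase, had 42165, 42556, and 42160 normalized counts at 0.5 h and 43966, 46245, and 40665 at 2 h, which overlap (0.05, SE 0.07, adjusted p = 0.655), and the desaturase SCD had -0.17 (adjusted p = 4.87e-04). INSIG1, which retains the sterol sensor in the ER, had -0.09 (adjusted p = 0.564). HMGCS1 (0.38) and CYP51A1 (0.22), enzymes of cholesterol synthesis, rose. Under spike-in scaling, none of the 27 sterol genes was called higher and 2 were lower, SCD was not called, and FASN had -0.04.

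Keratins, ribosome biogenesis, and the cytoskeleton moved up between 0.5 and 2 h, beside 17.0% of all genes higher and 18.3% lower. Of 18 keratins 15 were higher and none was lower (median 0.619), with KRT6B at 806, 804, and 867 normalized counts at 0.5 h and 2627, 2915, and 2798 at 2 h (1.76, SE 0.06, adjusted p = 1.43e-25). KRT80 (1.36), KRT5 (0.55), and KRT7 (0.55) rose as well, and KRT6A, named after its values were seen, had the largest change (2.87), though KRT6A, KRT6B, KRT6C, KRT16, and KRT17 are similar in sequence and reads may be assigned between them. Of 14 targets of SRF and YAP in the cytoskeleton, 10 rose and 1 fell. Among those that rose were FHL2, a LIM-domain coactivator (2599, 2634, and 2638 at 0.5 h and 5334, 5325, and 5877 at 2 h), MYH9, a myosin (0.71), VCL, vinculin (0.70), and TPM4, a tropomyosin (0.68). Other members, named after their values were seen, differed: CTGF fell (-0.59), CYR61 (-0.04) and AMOTL2 (0.09) were not called, and ANKRD1 rose (0.42). Of 30 ribosome biogenesis genes 22 rose and none fell (median 0.254), led by RRP12 (0.87) and URB2 (0.58), and 9 were called higher under spike-in scaling. With that scaling 9 keratins and 6 SRF and YAP targets were called higher, and no median of the 3 lists turned negative. At 0.5 h against 0 h, 11 keratins, 23 ribosome biogenesis genes, and 10 SRF and YAP targets were lower (16.2% of all genes). Only 1 member, an SRF and YAP target, was higher. At 2 h against 0 h, 7 keratins were higher and 0 lower (median 0.189). No ribosome biogenesis gene or SRF and YAP target was higher there, and 1 of each was lower (medians 0.006 and -0.004), beside 2.46% and 1.87% of all genes.

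Mitotic genes moved down together by small amounts. Of 19 G2 and mitosis genes 18 were lower at 2 h and none was higher (median -0.475), beside 18.3% and 17.0% of all genes, and the count was 18 under spike-in scaling too. AURKA, a kinase of the spindle poles, had 1986, 2108, and 2059 normalized counts at 0.5 h and 1061, 1062, and 1115 at 2 h (-0.93, SE 0.05), TOP2A, a topoisomerase, had 11162, 11173, and 11200 and 6383, 6026, and 6183 (-0.85), and TPX2, a spindle assembly factor, -0.48. The levels at 2 h were close to those at 0 h, where AURKA averaged 1173 ± 49.9 and TOP2A 6209 ± 395. Of 14 genes of G1, 4 rose and 3 fell, beside 17.0% and 18.3% of all genes. Cyclin D1, CCND1, rose by 0.70 and the cyclin-dependent kinase inhibitor CDKN1A (p21) by 1.12, from 1549, 1518, and 1353 to 2898, 3857, and 2804 normalized counts, while the inhibitor CDKN1B (p27) had -0.85.

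The clock genes PER1 (478, 365, and 369 normalized counts at 0.5 h and 1611, 1848, and 1277 at 2 h, 1.96) and PER2 (1.63) rose, and BHLHE40, a repressor that answers to serum and light, fell (-1.70). Of 17 clock genes, 5 rose and 7 fell (all genes 17.0% and 18.3%). CYP1A1, a monooxygenase and the standard readout of the aryl hydrocarbon receptor, rose from 813, 854, and 969 to 2197, 2320, and 2276 (1.37, SE 0.07), which lies between its 0.5 h level and that of 4936 ± 469.5 at 0 h, and CYP1B1 rose by 0.71. Of 9 genes of that receptor 4 rose and 1 fell, a few genes beside shares of 17.0% and 18.3%. Those that rose included AHR itself (0.17) and NQO1 (0.12, named after its values were seen). The 4 not called, also named after their values were seen, were TIPARP (0.15), ALDH3A1 (0.38), AHRR (0.05), and CYP1A2 (-0.004). Of 16 NRF2 targets 6 rose and none fell (all genes 17.0% and 18.3%), OSGIN1 (0.50) and TXNRD1, thioredoxin reductase (0.36), among them. Of 10 genes of glucose sensing and uptake 5 rose and 1 fell, beside the same shares, with PFKFB3, a glycolytic regulator, at 0.83. Under spike-in scaling, 1 NRF2 target was called higher and none lower, and 2 glucose genes were called higher and 1 lower. TXNRD1 was not called there. Of 13 heat shock genes 1 rose and 2 fell, both shares below those of all genes (17.0% higher, 18.3% lower). Of 13 genes of the IRF2BP2 family and Polycomb complex 1, 5 fell and 1 rose (all genes 18.3% and 17.0%): IRF2BPL fell (log2 fold change -0.95), and IRF2BP2 had 5913, 5779, and 5640 normalized counts at 0.5 h and 6054, 6073, and 5866 at 2 h (0.05, adjusted p = 0.288, and -0.04 under spike-in scaling).

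**Figure D3:**
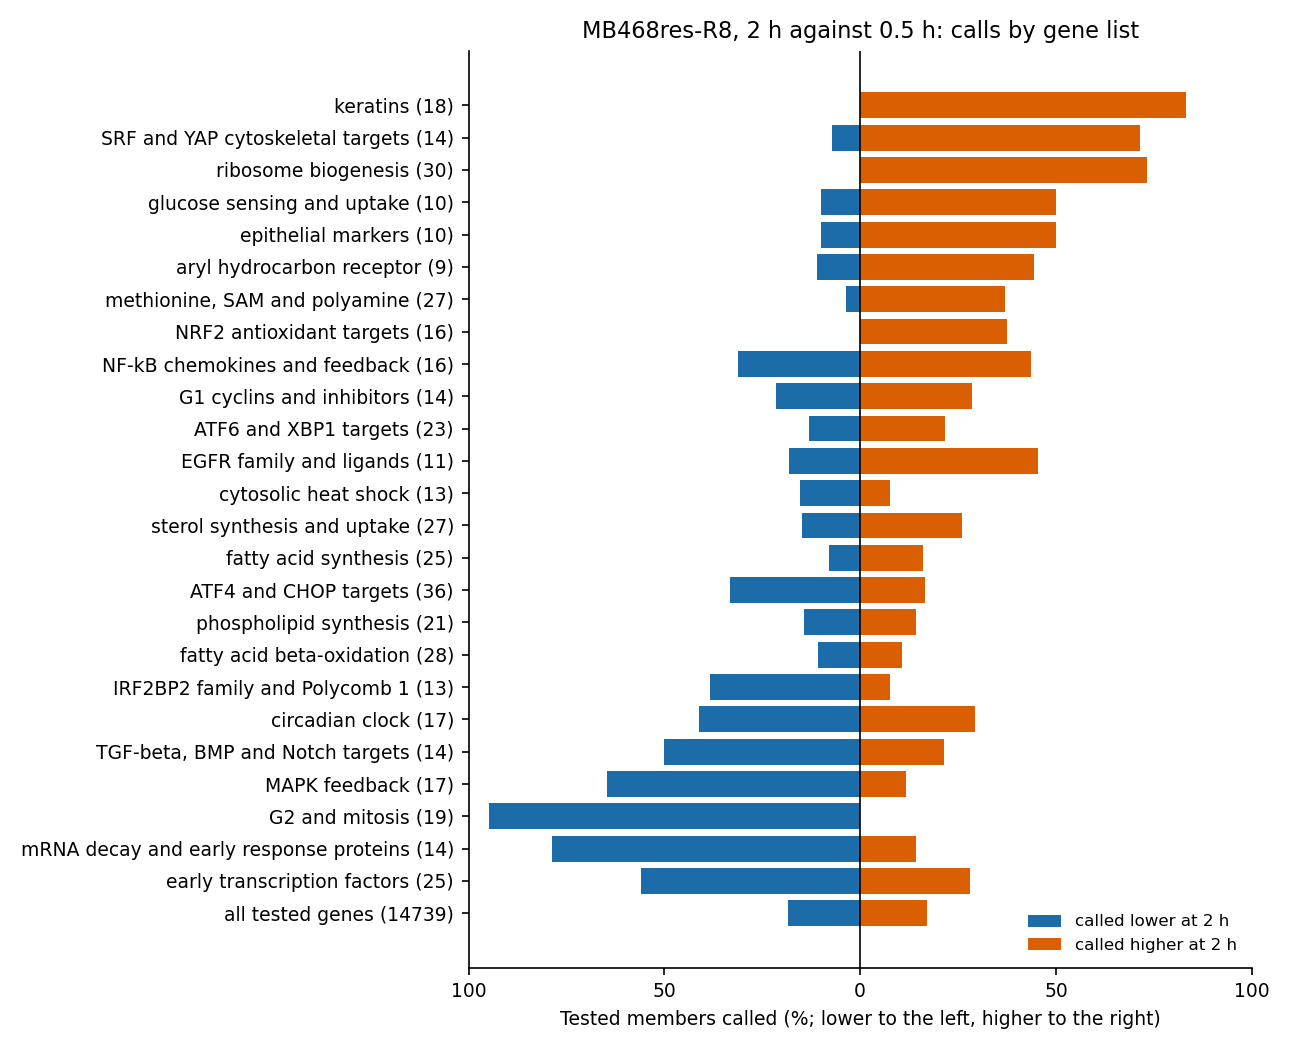
Share of tested members (%) called lower (blue, left) and higher (orange, right) at 2 h than at 0.5 h in MB468res-R8, for all tested genes (bottom) and 25 lists with at least 9 tested members, ordered by median log2 fold change; numbers in parentheses are tested genes. The mitotic list was called lower in 18 of 19 genes and the keratin list higher in 15 of 18, and the 4 lists of lipid metabolism stay near the bar of all genes.

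Genes that fell and genes that rose differed in extent along the genome. The median span was 23123 bp for the genes called higher, 50013 bp for those called lower, and 29265 bp for all tested genes with a RefSeq position. The relation turned around among 2-fold changes, where the span was 16578 bp for falling and 25608 bp for rising genes. FOS spans 3403 bp, DUSP1 3100 bp, and PHLDB2 244022 bp.

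Of the motifs marked in the promoters, the AP-1 site (TGANTCA) differed most in share between rising and falling genes. RefSeq promoters (250 bases before to 50 after the start) were matched to 11214 of the 14739 tested genes, and both strands were searched for motifs of which none contains another. The AP-1 site was found in 13.3% of 286 promoters of genes with a 2-fold rise, 1.41% of 142 promoters of genes with a 2-fold fall, 4.84% of all tested, and 7.76% of all 27305 promoters of the table. For all called genes the shares were 6.51% (higher) and 3.69% (lower). The CArG box was found in 6 of the 286 promoters, 4 of the 142, and 1.03% of all tested. The CRE (TGACGTCA) was found in 3.85%, 4.23%, and 3.15%, the ATF4 element (TGATGNAA) in 2.80%, 3.52%, and 1.76%, and the core of the xenobiotic response element (GCGTG) in 46.2%, 43.7%, and 49.6%. Among the genes named by rule, an AP-1 site was found for EZR, TNFRSF8, OSGIN1, PISD, and ARRDC2, which rose, and for DDIT3, which fell. A CArG box was found for FHL2, TPM4, and CYP1A1, which rose, besides EGR1, and a CRE for AREG, which rose, and DUSP1, PPP1R15A, and IRF2BPL, which fell. These counts are small and describe letters in these windows, not binding.

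In the parental line, the same interval changed a similar number of genes. In MB468, 4815 genes were called between 0.5 and 2 h (32.7% of those tested), 2505 higher and 2310 lower. Of the 2503 genes that rose in MB468res-R8, 1520 (60.7%) also rose in MB468, and of the 2691 that fell, 1560 (58.0%) also fell, against 17.0% and 15.7% of all genes. The 2 comparisons share no library, and across the 14739 genes, which are not independent, the log2 fold changes correlated with a Pearson coefficient of 0.57. MAT2A changed by 1.40 and 1.40 (difference 0.00, SE 0.07), and KRT7 by 0.55 and 0.54 (difference 0.00, SE 0.05).

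A test of the difference between the lines called 1232 genes (8.36%), 474 with a higher change in MB468res-R8 (3.22%) and 758 with a lower one (5.14%). This number depended on scaling: with spike-in totals it was 261, of which 60.5% were higher, against 38.5% here, and the median difference of all genes moved from -0.01 to 0.122. Many immediate early genes had a lower change in MB468res-R8. EGR1 in MB468 had 28239, 28135, and 32513 normalized counts at 0.5 h and 12630, 13148, and 12749 at 2 h (-1.21 on the log2 scale), so that the line difference was -3.65 (adjusted p = 2.44e-12). FOS in MB468 had 6686, 7476, and 8923 and 675, 698, and 721, a difference of -2.05 (adjusted p = 4.46e-11). At 2 h the MB468res-R8 libraries were below all 3 of MB468 for both genes. At 0.5 h they were above them for FOS and below them for EGR1. Of the 25 early transcription factors, 15 had a lower change in MB468res-R8 and none a higher one, among them 12 of the 14 that fell in MB468res-R8, and over all 25 the counts were 10 and 0 with spike-in scaling.

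Some genes went in opposite directions. TGIF1 had 3593, 3409, and 3435 normalized counts at 0.5 h and 1659, 1558, and 1622 at 2 h in MB468res-R8, and 3466, 3406, and 3737 and 4808, 5060, and 4756 in MB468, log2 fold changes of -1.11 and 0.47 with a difference of -1.58 (adjusted p = 3.61e-22, the smallest of the line differences). NUAK2, a kinase related to AMPK, had -0.78 and 1.58, NFKBIA had -1.28 and 0.31, PPP1R15A had -0.92 and 0.44, and HBEGF had -0.96 and 0.88. KLF10 fell in MB468res-R8 (-1.80) and had -0.02 in MB468. In the other direction, FOXC1, a forkhead transcription factor, had 430.2, 413, and 479 at 0.5 h and 975, 1011, and 940.1 at 2 h in MB468res-R8, and 1232, 1357, and 1199 and 997, 972, and 1037 in MB468 (difference 1.49, adjusted p = 4.04e-15). NDRG1, a stress-induced protein (1.35 against 0.22), RDH10, a retinol dehydrogenase (1.27 against 0.04), and the ubiquitin ligase adaptors KLHL25 (0.78 against -0.61) and KLHL9 (0.44 against -0.63) also had a higher change in MB468res-R8. IRF2BP2 differed by -0.51 (adjusted p = 3.10e-09), but with spike-in totals its line difference was -0.38 and was not called (adjusted p = 0.461). In MB468 at 2 h, 0.170% of the counts of replicate 2 fell on RNAs that lack a poly(A) tail, against at most 0.00326% in the 6 libraries of MB468res-R8, and without it 990 line differences were called.

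**Figure D4:**
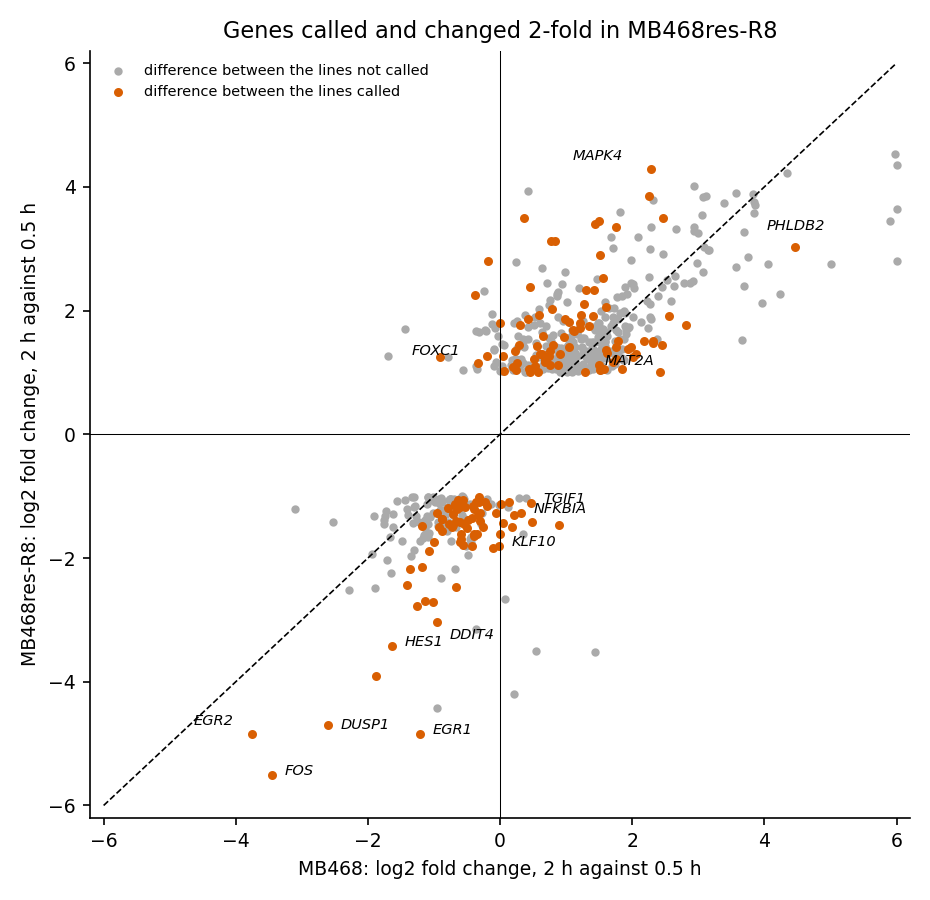
Log2 fold change from 0.5 to 2 h in MB468res-R8 (y axis) against that in MB468 (x axis) for the 594 genes called and changed 2-fold in MB468res-R8; orange points are the 162 whose line difference was called, the dashed line marks equal change, and 3 MB468 values past 6 are drawn at 6. FOS, EGR1, DUSP1, HES1, and DDIT4 lie below the line, with larger falls in MB468res-R8, and MAT2A lies on it.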

How the data were processed

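Poly(A) RNA with ERCC spike-ins was sequenced by the authors (TruSeq, single-end reads of 100 bases), aligned to GRCh38 with HISAT2 2.1.0, and counted per gene with featureCounts (Subread 1.5.3). The strand setting is not given in the sources used here. Values are the raw counts per gene that the authors deposited, 1 column for each of 24 libraries (11712531 to 36401605 gene counts). A deposited table of normalized values and a table of the authors' own comparisons (fold changes and p-values) were not used.

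Of 26645 gene entries, besides 92 spike-ins, 14739 passed edgeR's filterByExpr (minimum count 10, minimum total 15) after 4 repeated symbols were dropped. All 24 libraries were fitted with 8 group means by edgeR 4.0.16 (TMM scaling, robust quasi-likelihood test, two-sided) in R 4.3.3, and genes with a Benjamini-Hochberg adjusted p under 0.05 were called. Adjusted p-values throughout are from this test. To give normalized counts, each count was divided by its library's TMM size and multiplied by the mean size. The line difference is the change in MB468res-R8 minus that in MB468, from the same fit. Positions of the 0 h level were taken on log2 CPM with a prior count of 2, and binomial intervals cover counting error only. In a test on simulated data with 200 genes changed 2-fold among 14477, 98.5% were recovered for this contrast, and 4.37% of calls were unchanged genes. The changed genes were drawn only from genes above a minimum mean count. The recovery rate therefore does not cover genes of low level or changes under 2-fold, which most calls in the data were.

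Genes are named by a rule: those with groups that do not overlap and a mean of at least 1 CPM, the 10 largest rises and 10 largest falls; the 3 smallest p per direction; up to 4 called members per list by p; the 5 smallest p of the line difference per direction; and 13 fixed genes. A named gene that is withheld from the text is counted but not reported here. Members and lists were chosen with earlier results of these data known. Alternatives were DESeq2 1.42.0 (size factors, Wald test), spike-in totals, other filters, a fit to the compared libraries, a replicate block, and leaving out each library. Gene positions and promoters are from RefSeq (GRCh38.p14).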

Additional observations from a re-analysis of the deposited data

Results flagged for a closer look

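The change from 0.5 to 2 h differed between MB468res-R8 and MB468 for 55 of the 125 genes named by rule. The criterion was edgeR's test of the difference itself at an adjusted p under 0.05, which 8.36% of all tested genes passed. The rule named some genes for their small p in this same test, and many others for large or small-p changes in MB468res-R8. The share among named genes was thus partly fixed by their selection and cannot be compared with that of all genes. Values in parentheses are the log2 change in MB468res-R8 minus that in MB468. Of the 55 genes, 39 had a lower change in MB468res-R8. Among transcription factors and genes of transcription these were EGR1 (-3.65), FOS (-2.05), EGR2 (-1.09), KLF10 (-1.78), KLF6 (-0.77), HES1 (-1.78), TGIF1 (-1.58), IRF2BPL (-0.91), and IRF2BP2 (-0.51), and BHLHE40 (-1.11) of the clock. Among genes that restrain signaling or shorten messages they were DUSP1 (-2.09), DUSP5 (-1.14), DUSP16 (-0.35), SMAD7 (-1.74), RGS16 (-1.51), ZFP36 (-1.70), ZFP36L1 (-1.02), TRIB1 (-1.02), and IER2 (-0.96). Small GTPases, a kinase, and ligands of EGFR were represented by RASD1 (-2.02), RHOB (-1.25), NUAK2 (-2.36), HBEGF (-1.84), and AREG (-1.05), and NF-kB feedback by NFKBIA (-1.59), and NFKBIZ (-0.81). The genes of the stress response were DDIT4 (-2.08), DDIT3 (-1.24), CHAC1 (-1.02), SESN2 (-0.90), PPP1R15A (-1.36), DNAJB9 (-0.50), and DNAJB1 (-0.38). The remaining ones were CYP1A1 (-0.56), and CYP1B1 (-0.31) of the aryl hydrocarbon receptor, TOP2A (-0.33), and CENPF (-0.19) of mitosis, and KRT80 (-0.24), and MYH9 (-0.21) of the cytoskeleton.

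In 16 genes the change was higher in MB468res-R8. Low-level genes among them were MAPK4 (2.01), HES2 (1.96), EVA1C (1.60), and RAB7B (1.04), and genes ranked first by p were FOXC1 (1.49), KLHL25 (1.39), RDH10 (1.22), NDRG1 (1.13), and KLHL9 (1.07). Others were URB2 (0.65) of ribosome biogenesis, PMEPA1 (0.51) of TGF-beta signaling, cyclin D1 CCND1 (0.40), EZR (0.36) of the cytoskeleton, HK2 (0.35) of glycolysis, and AMD1 (0.31) of polyamine synthesis. With spike-in totals as library sizes, 19 of the 55 no longer passed the threshold. No sample group here is large enough for a search for single deviating libraries.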

How the results depend on the processing

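Library scaling changed the counts most. With spike-in totals as library sizes, 2379 genes were called between 0.5 and 2 h in MB468res-R8 in place of 5194, 164 list members in place of 262, and 261 line differences in place of 1232, and the share of called genes with a 0 h level nearer to 2 h was 87.91% for rising and 91.14% for falling genes. Under that scaling 20 of the 125 genes named by rule lost their call, and FASN (-0.0388) and IRF2BP2 (-0.0357), called in neither case, changed sign. The medians of the lists of EGFR ligands, NF-kB genes, ATF6 and XBP1 targets, heat shock genes, and G1 genes were below 0 there and above 0 otherwise. At an adjusted p under 0.01, 722 line differences were called. Of 2-fold changes alone, 91.98% of falling genes had a 0 h level nearer to 2 h, and with 12 h in place of 0 h the shares were 47.9% and 39.28%.

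With 1 library left out at a time, calls ranged from 4291 to 4830, line differences from 931 to 1226, and the shares nearer to 2 h from 83.27% to 88.06% for rising and from 84.58% to 89.93% for falling genes. In these fits HSPB1, ETNK1, RGL2, LPIN2, and MCAT lost their calls at least once, and so did the line differences of HES2, RASD1, MYH9, CENPF, KRT80, and AREG, among others.

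Libraries of MB468res-R8 with the same replicate number did not deviate together (correlations of -0.249, -0.113, and -0.0861 between 0.5 and 2 h). Between the lines at 0.5 h the correlations were 0.254, 0.0385, and 0.228, and at 2 h -0.132, -0.144, and 0.234. In none of these comparisons did every library correlate best with the library of its own number. The replicate number was therefore not taken as a pairing. When it was entered as a block, 5074 genes, 261 list members, and 876 line differences were called, and calls were lost for NR4A3 (2.83), HSPB1 (0.27), and the line differences of HES2, MYH9, and CENPF. DESeq2's Wald test gave 5100 calls and 1286 line differences. Depth limits genes such as UNC13A and TNFRSF8, which had few reads at 0.5 h.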
